A study of Mus musculus with 4 samples.

Results

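The genes that copy DNA in S phase were followed here through 4 bead arrays of immortalized mouse fibroblasts, connective tissue cells that divide in culture. The set was chosen by gene name, with earlier results of these data known. It was a list of 44 genes for origin licensing, the replication fork, nucleotide supply and S phase entry. Of these, 42 had a probe named on the platform, 39 gave a detected signal in some library and 37 did so in every one, out of 17711 named genes, of which 7734 gave a detected signal somewhere. Each group was a single library: cells given transfectant only, a control miRNA, miR-141 or miR-200c for 48 h. Hydrogen peroxide at 400 µM was present in all 4 cultures for the final 2 h, so no culture without oxidative stress was compared here. The title and description of the first library name the transfectant, while its transfection field reads none. The labels give neither the fibroblast line's origin nor its immortalizing agent. With 1 library per group no difference below has a replicate check or a test, and precision is limited by having 4 arrays.

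Replication begins when the origin recognition complex, with Cdc6 and Cdt1, loads the ring-shaped MCM helicase on DNA in G1. Cyclin E with its kinase, and E2F factors released from the retinoblastoma proteins, then start S phase, and many replication genes are themselves E2F targets. Cdc45 and the GINS complex switch the helicase on, and primase, the DNA polymerases, the sliding clamp and its loader copy the strands. miR-141 and miR-200c belong to the miR-200 family, best known for keeping cells epithelial.

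The mature forms of both miRNAs are shown because the groups differ by them, from RefSeq on GRCm38.p6, with bases 2 to 8, the seed that pairs with target transcripts, in capitals. Which arm was transfected is not stated in the labels, so both arms are given. All 4 lie on the minus strand, at chr6:124717917-124717938, chr6:124717959-124717980, chr6:124718324-124718346 and chr6:124718365-124718386 in the order printed.
mmu-miR-141-3p: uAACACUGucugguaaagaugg
mmu-miR-141-5p: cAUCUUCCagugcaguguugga
mmu-miR-200c-3p: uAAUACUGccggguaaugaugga
mmu-miR-200c-5p: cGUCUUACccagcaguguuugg
The 3p seeds differ at 1 base, C4U from miR-141 to miR-200c, counted from the 5′ end, and the 4 arms carry 4 different seeds.

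Signals are given on a normalized log2 scale, and a probe counted as detected at a detection p-value under 0.01. Genes detected with the miRNA, or else in both controls, were considered, and one was called higher or lower if it lay at least 1.5-fold (0.58 in log2) to the same side of both controls. Between 6989 and 7152 genes were detected per library. Of 12 fibroblast markers 7 were detected, Col1a1, Vim, Pdgfrb, S100a4, Dcn, Fn1 and Prrx1, while Col1a2, Col3a1, Thy1, Pdgfra and Lum were below detection in every library. By library, 7 fibroblast markers were detected in each control and 6 with each miRNA. All leukocyte and skeletal muscle markers on the array were below detection, and of 4 endothelial and 4 neural markers 1 each was detected, Kdr and Tubb3. Of 6 epithelial markers 1 was detected in each control and 3 with each miRNA. Cdh1, Epcam and Krt18 were below detection in every library. The summed raw signal of the epithelial markers was 350 in transfectant only, 293 in control miRNA, 474 after miR-141 and 847 after miR-200c. Raw signals are not normalized between arrays, and these sums include undetected markers. For the fibroblast markers the sums were 21763, 13883, 15909 and 12881 in the same order. The part of these markers in the results below was not tested. In such bulk RNA, fewer cells in S phase and less of a transcript per cell cannot be told apart.

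Few replication genes lay 1.5-fold from both controls with either miRNA. With miR-141, 0 members were higher and 1 was lower among 37 considered, where 2.37% and 3.14% of all genes considered were called in these directions. The lower one was Mcm7. With miR-200c, 1 was higher and 0 were lower among 39, where 4.07% and 4.55% of all genes considered were called. The higher one was Ccne2. A single call in each set is near these shares and is not a result about the set. For miR-141 the median log2 difference of the 39 detected members was 0.03 from control miRNA and -0.01 from transfectant only, where all 7734 detected genes had 0.01 and 0.02. For miR-200c it was 0.12 from control miRNA and 0.10 from transfectant only, where all detected genes had -0.00 and 0.01.

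**Figure D1:**
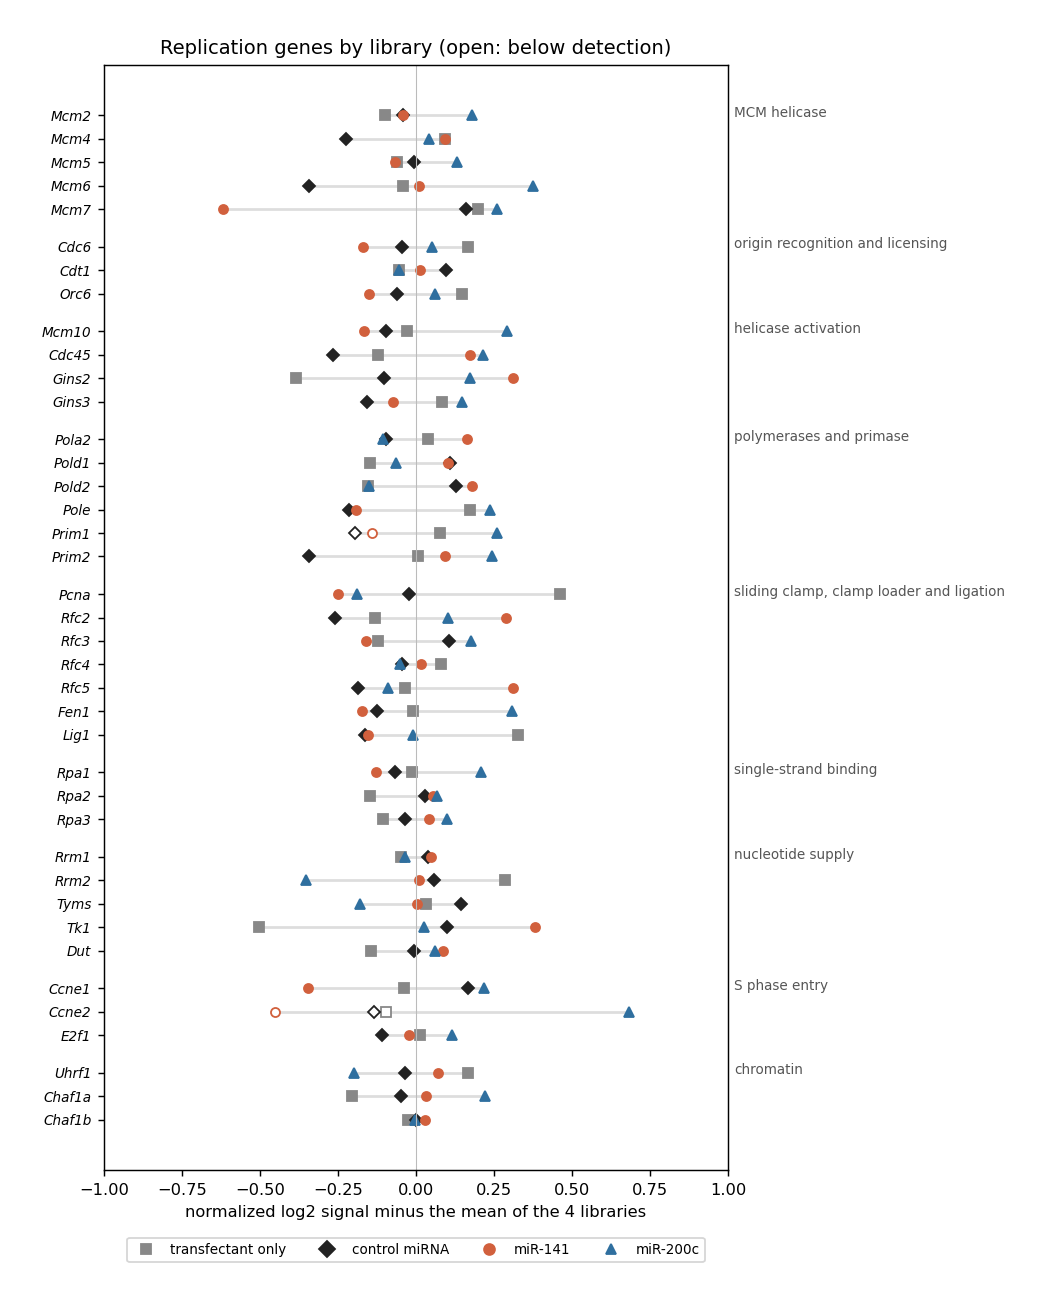
Normalized log2 signal of the 39 detected replication genes in each library, minus that gene's mean over the 4 libraries, grouped by role; each point is 1 library and open points are below detection. Mcm7 with miR-141 and Ccne2 with miR-200c stand apart from their other libraries, and most genes span less than 0.58.

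Across all 4 libraries, the lowest and highest values of a member lay 0.05 to 0.89 apart in log2 among the 37 members detected throughout. The median span was 0.34, and 31 of these 37 members (83.8%) kept all libraries within 1.5-fold. Among all 6485 genes detected throughout, the median span was 0.43 and 72.5% kept within 1.5-fold. The steadiest member was Chaf1b, the chromatin assembly subunit that deposits histones behind the fork, at 9.59 and 9.61 in the controls (transfectant only first) and 9.64 and 9.61 with miR-141 and miR-200c. The widest span belonged to Tk1, followed by Mcm7.

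The MCM helicase, which unwinds DNA ahead of the fork, held the only member lower with miR-141. Mcm7 (Entrez gene 17220) measured 10.21 in transfectant only, 10.17 in control miRNA, 9.39 with miR-141 and 10.27 with miR-200c. Its low library was miR-141, and the other 3 lay within 0.10 of each other. This placed Mcm7 1.71-fold lower with miR-141 than in control miRNA, 1.76-fold lower than in transfectant only and 1.84-fold lower than with miR-200c. A second, dimmer Mcm7 probe was also lowest with miR-141, at 6.57 against 6.86 in transfectant only, 7.30 in control miRNA and 7.36 with miR-200c. On that probe the controls lay 0.45 apart, and the distance of miR-141 from transfectant only was -0.29, so the second probe alone did not pass the rule, nor did the mean of both probes.

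The other measured subunits did not follow Mcm7. With miR-141, Mcm2 differed from control miRNA by 0.00 and Mcm5 by -0.06, while Mcm4 differed by 0.32 and Mcm6 by 0.35. Against transfectant only, these 4 subunits lay between -0.01 and 0.06. With miR-200c all 5 measured subunits were above control miRNA, by 0.10 to 0.72, and 4 of 5 were above transfectant only, Mcm4 lying at -0.05. Mcm6 was the farthest, at 9.07, 8.77, 9.13 and 9.49 for transfectant only, control miRNA, miR-141 and miR-200c. Its miR-200c library was the highest, 0.72 above control miRNA but 0.42 above transfectant only, short of the rule. Mcm3 had no named probe.

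**Figure D2:**
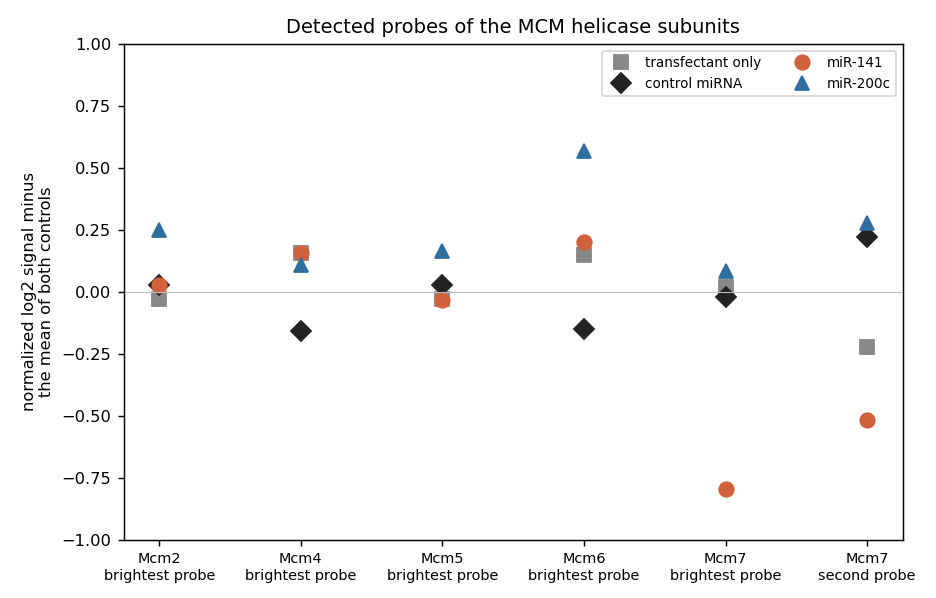
Each detected probe of Mcm2, Mcm4, Mcm5, Mcm6 and Mcm7, as normalized log2 signal minus the mean of both controls; each point is 1 library. With miR-141 both Mcm7 probes lie below both controls, while the other subunits lie near or above them.

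The promoters of the replication genes were searched for E2F letters, since E2F factors drive many of them. Promoter sequences of 250 bases before to 50 after each start were matched for 37 of 44 members, with 43 starts. The E2F letters searched were TTTCCCGC, TTTCGCGC, TTTGCCGC and TTTGGCGC on both strands, and the CCAAT box was searched as CCAAT on both strands. E2F letters were found in 13 of 43 member promoters (30.2%), against 2.26% of 32851 promoters in the table. CCAAT was found in 25 of 43 (58.1%), against 37.4% of all. The members with E2F letters were Cdc6, Cdt1, Gins3, Lig1, Mcm3, Mcm5, Mcm6, Mcm7, Orc1, Pola1, Pold1, Rfc3 and Uhrf1. They included Mcm7, the member lower with miR-141, and Mcm5, which lay at -0.06 and -0.01. A match here is a description of letters, not a binding site.

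The promoter of Mcm7 is shown because its transcript was the one called with miR-141, and those of Mcm5 and Mcm6 because they encode partners in the same helicase that were not lower. The sequences are from RefSeq on GRCm38.p6, at chr5:138171834-138172133 (minus strand) for Mcm7, chr8:75109259-75109558 (plus strand) for Mcm5 and chr1:128359656-128359955 (minus strand) for Mcm6. Each reads 5′ to 3′ along its gene, and capitals mark E2F letters on either strand.
Mcm7: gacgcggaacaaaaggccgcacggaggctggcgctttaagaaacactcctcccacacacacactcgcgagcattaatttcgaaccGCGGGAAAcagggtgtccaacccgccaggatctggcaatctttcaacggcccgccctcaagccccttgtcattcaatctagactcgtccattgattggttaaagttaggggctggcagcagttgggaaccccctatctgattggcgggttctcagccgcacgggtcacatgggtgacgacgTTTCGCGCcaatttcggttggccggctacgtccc
Mcm5: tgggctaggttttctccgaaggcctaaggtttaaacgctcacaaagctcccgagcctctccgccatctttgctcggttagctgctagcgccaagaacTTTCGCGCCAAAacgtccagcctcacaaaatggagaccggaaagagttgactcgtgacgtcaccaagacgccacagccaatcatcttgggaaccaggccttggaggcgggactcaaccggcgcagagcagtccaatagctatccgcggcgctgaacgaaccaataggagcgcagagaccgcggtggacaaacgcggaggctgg
Mcm6: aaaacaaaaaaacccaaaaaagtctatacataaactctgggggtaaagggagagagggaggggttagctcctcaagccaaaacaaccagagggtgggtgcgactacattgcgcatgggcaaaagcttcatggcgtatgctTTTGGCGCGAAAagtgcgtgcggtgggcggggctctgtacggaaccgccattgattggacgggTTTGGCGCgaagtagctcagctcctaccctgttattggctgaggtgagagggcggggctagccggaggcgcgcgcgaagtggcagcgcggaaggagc
Counted from 1 at the start of the gene, the Mcm7 matches lie at -165 to -158 and at 17 to 24, and the last base of the latter is the first of a CCAAT. The 2 Mcm5 matches overlap between -153 and -142. Mcm6 has 3 matches, of which 2 overlap between -110 and -99 and the third starts at -47. The Mcm7 window holds 3 CCAAT, the Mcm5 window 3 and the Mcm6 window 2.

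Of the genes that license and recognize origins, none was called. Cdc6, which helps load the helicase, measured 7.04, 6.83, 6.71 and 6.93 for transfectant only, control miRNA, miR-141 and miR-200c. Cdt1, its loading partner, spanned 9.35 to 9.51, and Orc6, an origin recognition subunit, 10.84 to 11.13. Control miRNA minus transfectant only was -0.21 for Cdc6 and Orc6 and 0.15 for Cdt1. Orc1 was below detection in every library.

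The 4 measured genes that activate the helicase all lay above both controls with miR-200c, without passing the rule. Mcm10, which helps the loaded helicase start, lay 0.39 above control miRNA and 0.32 above transfectant only with miR-200c, and -0.07 and -0.14 with miR-141. Its second, dimmer detected probe read -0.29 and -0.02 with miR-200c, on the other side. Cdc45, a partner of the active helicase, was dim, at 5.49 in transfectant only and 5.35 in control miRNA. The lowest detected signals of those arrays were 5.29 and 5.33. Cdc45 was above both controls with both miRNAs, by 0.44 and 0.30 with miR-141 and by 0.48 and 0.34 with miR-200c. Gins2 was likewise above both, at 9.25 in transfectant only, 9.54 in control miRNA, 9.95 with miR-141 and 9.81 with miR-200c, or 0.41 and 0.70 for miR-141. All 3 detected Gins2 probes were above both controls with miR-141, and 2 of the 3 with miR-200c. Against control miRNA its distance stayed under the rule. Gins3 lay between 6.27 and 6.57, and Gins1 had no named probe.

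The polymerases and primase showed no called member. The delta polymerase subunits Pold1 and Pold2 measured 9.33 and 10.61 in transfectant only, 9.58 and 10.89 in control miRNA, 9.58 and 10.94 with miR-141 and 9.41 and 10.61 with miR-200c. Pole, which encodes the catalytic subunit of the leading-strand polymerase, lay at 7.62 in transfectant only and 7.68 with miR-200c, against 7.23 in control miRNA and 7.25 with miR-141. For Pole the controls were 0.39 apart and the miRNA libraries 0.43. Prim2, the large primase subunit, was lowest in control miRNA at 6.66, against 7.09 with miR-141 and 7.24 with miR-200c. For Prim2 control miRNA minus transfectant only was -0.35. Its catalytic partner Prim1 was detected in transfectant only at 5.54 and with miR-200c at 5.72, where it was at least 1.31-fold higher than in control miRNA. With miR-141 and in control miRNA Prim1 was below detection. Pola2 spanned 8.01 to 8.28, and Pola1 was below detection in every library.

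The clamp loader opens the sliding clamp Pcna and sets it on DNA. Its subunit Rfc2 was highest with miR-141 on all 3 detected probes. The brightest read 9.26 in transfectant only, 9.14 in control miRNA, 9.68 with miR-141 and 9.50 with miR-200c, or 0.55 and 0.42 for miR-141 against control miRNA and transfectant only. The dimmest of the 3 read 0.59 and 0.74 and would have passed the rule on its own, while the middle one read 0.34 and 0.64. Rfc5 was also highest with miR-141, at 9.29 against 8.94 in transfectant only, 8.79 in control miRNA and 8.89 with miR-200c. Rfc3 and Rfc4 did not share this, at -0.27 and 0.06 for miR-141 minus control miRNA.

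Pcna measured 6.98 in transfectant only, 6.49 in control miRNA, 6.27 with miR-141 and 6.33 with miR-200c. Transfectant only was the high library, and the control miRNA library lay closer to the miRNA libraries than to the other control. Against transfectant only Pcna was -0.71 with miR-141 and -0.65 with miR-200c, but against control miRNA -0.23 and -0.17, so it was not called. Lig1, the ligase that joins Okazaki fragments, had the same order of controls, at 9.38 in transfectant only and 8.89 in control miRNA, although its other 2 detected probes had control miRNA higher. Fen1, the flap nuclease that trims those fragments, was highest with miR-200c at 10.32, against 10.01 in transfectant only, 9.89 in control miRNA and 9.84 with miR-141.

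The single-strand binding proteins Rpa1, Rpa2 and Rpa3 were above both controls with miR-200c, by at most 0.28. On the brightest probes their distances with miR-141 lay between -0.12 and 0.20. A second detected Rpa2 probe pointed the other way, at -0.30 and -0.32 with miR-200c against control miRNA and transfectant only. With miR-141 that probe read -0.44 and -0.46 for the same pairs.

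Nucleotide supply held the only member called between the controls. Tk1, the thymidine kinase of the salvage pathway, measured 9.22 in transfectant only, 9.82 in control miRNA, 10.11 with miR-141 and 9.75 with miR-200c. Transfectant only was the low library, 1.52-fold below control miRNA. The second detected Tk1 probe put the controls 0.05 apart, at 9.08 and 9.13, with 9.48 for miR-141 and 9.34 for miR-200c. Across the controls 1 member was thus higher in control miRNA and 0 lower among 38 considered, where 3.16% and 4.51% of all genes considered were called.

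Rrm2, the regulated subunit of ribonucleotide reductase, was lowest with miR-200c, at 8.53 against 9.17 in transfectant only, 8.94 in control miRNA and 8.89 with miR-141. Its distances from the controls with miR-200c were -0.64 for transfectant only and -0.41 for control miRNA, and a second, dim Rrm2 probe read 0.16 and -0.01 for the same pairs. Tyms, which makes thymidylate, was also lowest with miR-200c, on both detected probes, by -0.33 from control miRNA and -0.21 from transfectant only on the brighter. Rrm1 spanned 9.35 to 9.44 and Dut, which clears dUTP, 7.24 to 7.47. Rrm2 and Tyms were 2 of the 6 members below both controls with miR-200c, beside Pcna, Pola2, Rfc4 and Uhrf1.

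Among the genes for S phase entry, the cyclin E gene Ccne2 was the one called. Ccne2 (Entrez gene 12448) read 5.66 with miR-200c, the only library in which it was detected, and 4.88, 4.84 and 4.53 in transfectant only, control miRNA and miR-141. Its miR-200c signal was at least 1.26-fold that of control miRNA and at least 1.29-fold that of transfectant only. It entered the comparison through the library in which it was high, and with values below detection set at their bound it was not called. Ccne1 was detected throughout, at 6.75 in transfectant only, 6.96 in control miRNA, 6.45 with miR-141 and 7.01 with miR-200c. Its low library was also miR-141, by -0.51 and -0.31 against control miRNA and transfectant only, which did not pass the rule. E2f1, an activator of replication genes, spanned 9.21 to 9.43 with both miRNA libraries within 0.22 of the controls.

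Of the chromatin genes, Chaf1a lay 0.27 and 0.43 above control miRNA and transfectant only with miR-200c, and 0.08 and 0.24 with miR-141. Uhrf1, which guides maintenance methylation of new DNA, read 11.15 in transfectant only, 10.95 in control miRNA, 11.05 with miR-141 and 10.79 with miR-200c. Slbp, the histone mRNA binding protein, was below detection in every library.

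**Figure D3:**
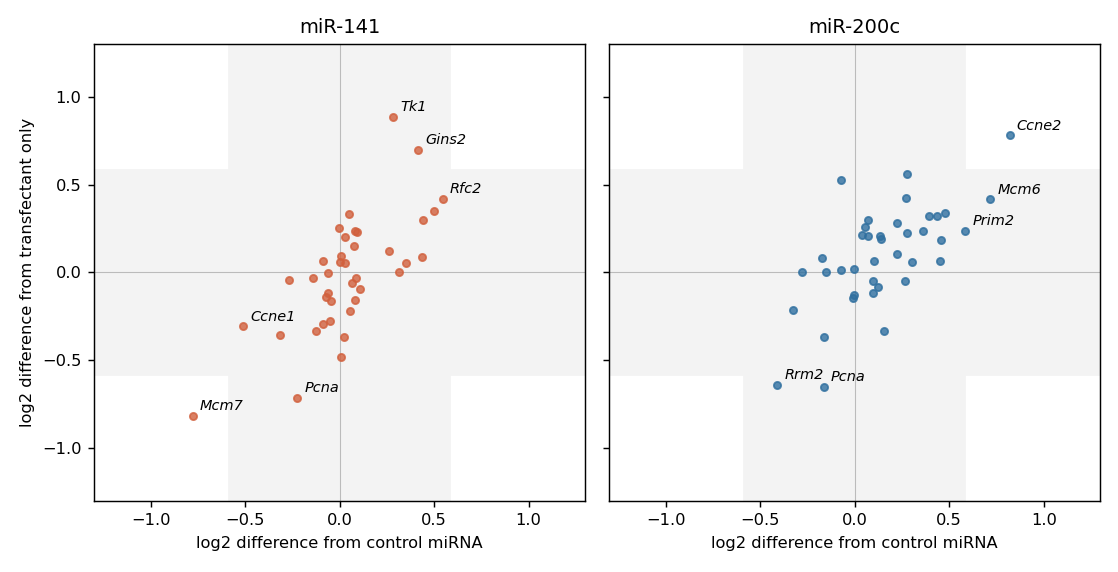
Log2 difference of each of the 39 detected members from control miRNA (x) and from transfectant only (y), with miR-141 on the left and miR-200c on the right; each point is 1 gene and the grey bands mark differences under 1.5-fold. Only Mcm7 with miR-141 and Ccne2 with miR-200c lie outside both bands on the same side of both controls. Ccne2 was below detection in both controls, and with those values at their bound its differences were 0.33 and 0.37, inside the bands.

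Counted at any size, 15 of 37 members lay above both controls with miR-141 and 12 below, where 37.7% and 32.1% of all genes considered did. With miR-200c 22 of 39 lay above both controls and 6 below, 56.4% and 15.4% of the members, where 37.9% and 34.3% of all genes considered did. The members above both controls with miR-200c included 4 helicase subunits, Mcm10, Cdc45, Gins2 and Gins3, Fen1 and all 3 single-strand binding genes. With the authors' processed values 21 lay above (53.8%) and 9 below (23.1%) for miR-200c, where 33.6% and 36.6% of all genes considered did. For miR-141 20 then lay above (54.1%) and 9 below (24.3%), where 38.0% and 30.6% of all genes did. With median scaling the controls moved apart, and 5 members lay above (12.8%) and 0 below for miR-200c, where 17.3% and 13.9% of all genes did, so the members' share above both controls was then under that of all genes. For miR-141 that scaling left 3 above (8.11%) and 2 below (5.41%), where 16.8% and 10.8% of all genes did. With 1 library per group, no direction of the whole set is read from these counts.

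Between the miRNAs, set against each other, 2 of 39 members were called at 1.5-fold. Mcm7 and Ccne2 were both lower in the miR-141 library, and 0 members were higher there, where 4.53% and 4.01% of all genes considered were called. Ccne2 was below detection with miR-141 and entered through the miR-200c library, in which it was high. Its difference was at least 1.23-fold, and at that bound it was not called, unlike Mcm7. The next members in that direction were Ccne1 at -0.56, Fen1 at -0.48 and Mcm10 at -0.46 for miR-141 minus miR-200c. In the other direction stood Rfc5 at 0.40, Rrm2 at 0.36 and Tk1 at 0.36. The median of the 39 members was -0.06, against 0.01 over all detected genes.

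Genes that regulate entry into S phase, but are not part of the machinery, gave 3 calls with miR-200c. Of 29 listed G1/S regulators 21 were detected, and with miR-200c 2 were higher (9.52%) and 1 lower (4.76%), where 4.07% and 4.55% of all genes considered were called. With miR-141 none was called in either direction, where 2.37% and 3.14% of all genes were. E2f2, an activator E2F like E2f1, read 5.61 in transfectant only, 6.23 in control miRNA, 6.11 with miR-141 and 7.33 with miR-200c. Its miR-200c library was 1.10 above control miRNA, but the controls themselves lay 0.62 apart. Cdkn1a, which encodes the inhibitor p21 that blocks S phase kinases, read 7.05 with miR-200c against 6.11 in control miRNA and 5.52 in transfectant only, and was below detection with miR-141. Between the miRNAs its signal was at least 3.23-fold higher for miR-200c, while its controls differed by 0.59. Fbxw7, the ubiquitin ligase adaptor that targets cyclin E, was the lower one, at -0.68 and -0.60 with miR-200c against control miRNA and transfectant only, and it was not called without background correction, with median scaling, with the authors' values, with an offset of 50 or at 2-fold. Cdkn1a was not called where detection in all 4 libraries was required, nor at 2-fold.

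Other regulators of the list were not called. Ccnd1, the cyclin that starts the G1 program, spanned 12.60 to 12.83 and its partner Cdk4 10.23 to 10.33. E2f3 differed from control miRNA by -0.06 for miR-141 and by -0.04 for miR-200c. Cdc25a, the phosphatase that activates S phase kinases, was lowest with miR-141 at 6.80, against 7.04 in transfectant only, 7.48 in control miRNA and 7.47 with miR-200c. Between the miRNAs E2f2, Cdc25a and Cdkn1a differed by 1.5-fold, all lower with miR-141, which is 14.3% of the 21, and none was higher, where 4.53% and 4.01% of all genes considered were called. E2f2 and Cdkn1a were also the 2 of this list (9.52%) called between the controls, both higher in control miRNA, where 3.16% of all genes were.

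**Figure D4:**
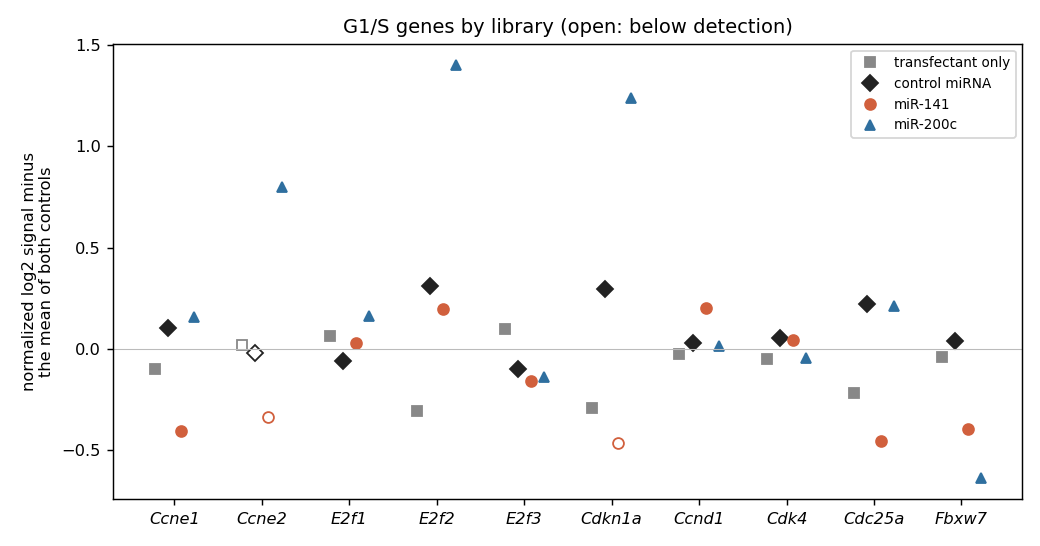
Normalized log2 signal of cyclin E genes and 8 other G1/S genes in each library, minus the mean of both controls; each point is 1 library and open points are below detection. Ccne2, E2f2 and Cdkn1a are highest with miR-200c, Ccne1 and Cdc25a are lowest with miR-141, and Cdkn1a is below detection there.

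Of 41 further replication factors on a second list 31 were detected. With miR-141 none of 28 considered was called, where 2.37% (higher) and 3.14% (lower) of all genes were. With miR-200c 1 of 29 was higher (3.45%) and 0 lower, near the 4.07% and 4.55% of all genes considered. Asf1b, a histone chaperone that works with the chromatin assembly factor, was the higher one, at 7.60 in transfectant only, 7.72 in control miRNA, 8.28 with miR-141 and 8.31 with miR-200c. It lay just short of the rule with miR-141, at 0.56 and 0.67. Between the miRNAs Dctd, which makes dUMP for thymidylate synthesis, was 0.61 higher with miR-141, and the origin subunit Orc4 and the fork protein Wdhd1 were lower, at -0.72 and -0.62. These are 3.45% higher and 6.90% lower, where 4.01% and 4.53% of all genes considered were called. The controls differed in 4 of 30 genes of this list (13.3%), all lower in control miRNA, where 4.51% of all genes were lower and 3.16% higher: Dbf4, the activator of the Cdc7 kinase, at -0.61, Wdhd1 and the fork protection gene Tipin at -0.70 each, and Dscc1, a clamp loader subunit below detection in control miRNA, at least 1.17-fold. With values below detection at their bound Dscc1 was not called.

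Of 25 G2/M and mitosis genes 18 were detected. With miR-141 none of 15 considered was called, where 2.37% (higher) and 3.14% (lower) of all genes were. For miR-200c 1 of 18 was higher (5.56%) and 0 lower, where 4.07% and 4.55% of all genes were. This was Ccnf, which encodes cyclin F, at least 1.20-fold higher than in control miRNA. Ccnf was below detection in the other 3 libraries, so it entered only through the library in which it was high, and with values below detection at their bound it was not called. Ccnf was also the 1 gene of this list (5.56%) lower with miR-141 in the comparison of the miRNAs, where 4.53% of all genes considered were. That difference was at least 1.17-fold, and at its bound Ccnf was not called there either. Between the controls 1 of 17 was higher in control miRNA (5.88%) and 2 were lower (11.8%), where 3.16% and 4.51% of all genes were. The spindle checkpoint kinase gene Bub1 was at least 1.31-fold higher, the kinetochore gene Ndc80 at least 1.48-fold lower, and the spindle assembly gene Tpx2 lay at -0.78. With values below detection at their bound neither Bub1 nor Ndc80 was called. For miR-141 the median of the 18 genes was 0.18 from control miRNA and 0.03 from transfectant only. For miR-200c it was 0.17 and 0.01.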

How the data were processed

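Per the file headers, the deposited non-normalized table gives an average bead signal intensity and a detection p-value per probe and array. The submitters' processing notes name GenomeStudio, without a version in the sources used here. Another deposited table, of the authors' processed intensity values is a straight line of each array's raw signals, of unstated method, and served as an alternative. All columns belonged to 1 of the 4 samples.

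Background was corrected by normexp using the detection p-values, then signals were offset by 16, quantile-normalized and log2-transformed (neqc, limma 3.58.1, R 4.3.3), and calls were made in Python 3.11.15 with pandas 2.3.3. Of 46632 probes, 29976 had 1 gene symbol, 10 several and 16646 none on the platform annotation. Each gene took its brightest probe by mean over the 4 arrays. Quantile normalization removes a shift shared by most genes, and the offset shrinks differences of dim probes.

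Calls were by size, 1.5-fold, with no test, since each group had 1 library. In the comparisons of the miRNAs and of the controls with each other, a gene counted when detected in at least 1 of both libraries. An "at least" fold sets the detected value against the undetected one, or against its array's lowest detected signal (5.29 to 5.37 in log2) where that is higher. The calling step was tested on simulated data for genes detected in all 4 libraries, with its pass mark set on changes larger than 1.5-fold. Genes below detection in some library, such as Ccne2, and changes near 1.5-fold were not covered.

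Named members were those called, below detection, with the 3 largest differences each way per comparison, and a fixed set (Mcm2 to Mcm7, Pcna, E2f1, Ccne1, Ccne2). From the other lists up to 6 called genes were named. Members and regulators beyond this rule, and the Mcm5 and Mcm6 promoters, were added with their values known. Members and lists were chosen with earlier results of these data known. The alternatives covered background correction, scaling, the authors' values, offset, detection, probe choice and fold.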

Additional observations from a re-analysis of the deposited data

How the results depend on the processing

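With 1 library per group nothing could be left out. No paired analysis was possible because each group has 1 library. Of 11 alternatives, median scaling accounted for 181 of the 202 single-gene values that moved. It put the median difference of all detected genes at 0.38 and 0.37 (miR-141, miR-200c) from control miRNA, at -0.35 and -0.36 from transfectant only and at -0.75 between the controls. The members' medians became 0.47, 0.54, -0.36, -0.33 and -0.86 in that order, which is 0.09, 0.17, -0.01, 0.03 and -0.10 relative to those medians. Between the controls 35 members became lower in control miRNA, but the median of all detected genes also lay past the 1.5-fold limit there. That count is therefore not a result about the members. Mcm7 was then not called with miR-141 (0 lower), although it lay at -0.69 and -0.88 relative to the medians of all detected genes against control miRNA and transfectant only. Tk1 reversed in sign between the controls, to -0.27, but lay at 0.49 relative to the median of all detected genes there.

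The Mcm7 call with miR-141 was also lost (0 lower) with the mean over probes and at 2-fold. Ccne2 was not called with miR-200c (0 higher) without background correction, with the authors' values, with an offset of 50, with detection in all 4 libraries, with undetected values at their bound and at 2-fold. Between the miRNAs 1 member, Mcm7, was lower with an offset of 50, detection in all 4 libraries or undetected values at their bound, and 1, Ccne2, at 2-fold. Tk1 was not called between the controls (0 higher) without background correction, with median scaling, an offset of 50, the mean over probes or 2-fold.

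At a looser fold (0.32 in log2) 3 members were higher with miR-141 (Gins2, Rfc2 and Rfc5), 3 higher with miR-200c (Mcm6, Ccne2 and Cdc45) and 1 lower (Rrm2), 4 higher and 10 lower for miR-141 minus miR-200c, and 4 lower in control miRNA. Mcm7 also passed as lower with miR-141, and Tk1 as higher in control miRNA. With miR-141 2 G1/S, 2 G2/M and 6 further replication genes then passed, and with miR-200c 3 G2/M and 8 further replication genes. The share of all genes passing at this fold is not given here. Between the controls alone, the differences of genes detected in all 4 libraries had an SD of 0.30. The counts at the looser fold are therefore not read as results about the members or lists. With miR-200c 1 G1/S gene, E2f2, passed at 2-fold. Ccnf passed in none (0) of the alternatives without background correction, with the authors' values, an offset of 50, detection in all 4 libraries, undetected values at their bound or 2-fold, and Asf1b in none (0) of those without background correction, with median scaling, the authors' values, an offset of 50 or 2-fold. In the remaining 173 of 220 comparisons with these alternatives, counts stayed within 1.5 times and medians within 0.1. That tolerance covers lost calls of the G1/S list with miR-200c, which went from 3 to 2 without background correction, with median scaling, the authors' values and an offset of 50 (Fbxw7 lost) and with detection in all 4 libraries (Cdkn1a lost). Dim probes near the detection limit, such as Ccne2 and Prim1, have only bounds, so differences there were not detectable below these sizes.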

Other observations

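Repeat probes give the closest thing to a second measurement within a library. Of the members 12 had more than 1 detected probe, with 15 further probes in all. For miR-141 minus miR-200c 13 of these 15 had the same sign as the brightest probe of their gene, and for miR-141 minus control miRNA 12 did. For miR-200c minus control miRNA 9 did, and between the controls 6. These probes share their library, so they do not stand in for replicates. Besides Mcm7, the probes of Gins2 and Rfc2 (3 each) gave the same sign within their gene for miR-141 minus control miRNA. So did those of Mcm10, Rfc3, Rfc4, Tk1, Tyms and Dut (2 each), while those of Lig1, Rpa2 and Rrm2 did not.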
